A study of Homo sapiens with 12 samples.

Results

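Expression of 34 genes of neurons and their synapses, among them the gene of the repressor REST, was measured by RNA sequencing of bulk MYLA (MyLa) cultures, an established line of cutaneous T cell lymphoma cells. The 34 genes were chosen by name from the 59050 gene names of the count table, with earlier results of these data known. They comprise REST, 7 genes of the synaptic vesicle and its Rab proteins, 4 synaptotagmins, 6 genes of SNARE proteins and complexins, 5 genes of dense core granules, 3 stathmins, 3 genes of the active zone, and 5 genes of neurofilaments and neuronal tubulin. Cells were kept for 24 h with 3.2 nM romidepsin, with 5.7 uM afatinib dimaleate, with both drugs, or with DMSO alone. All groups, DMSO included, had 20 ng/mL interleukin-2 in the medium and an equal volume of DMSO. Each of the 4 groups had 3 libraries, and the labels do not say whether these came from separate cultures, so p-values measure only the spread between libraries, which may be technical.

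REST is a zinc finger protein that binds a DNA element called RE1 in the control regions of many neuronal genes and keeps them off outside the nervous system. It does so with corepressor complexes that hold histone deacetylases, among them HDAC1 and HDAC2, and the scaffold protein RCOR1. Romidepsin is an inhibitor of histone deacetylases and afatinib one of ERBB receptor kinases, so the question for these genes was which of them romidepsin turned on in a T cell line, which stayed silent, and what the second drug changed.

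Libraries held 8972228 to 12696653 counts, and 3 counts corresponded to 0.229 to 0.343 CPM (the gene's share of its library's counts in parts per 1e+06, scaled by TMM factors), a floor that covers counting error only. Of 13 T cell markers, CD3E, CD5, CD7 and CD4 had at most 5 counts in any library, while CD2, CD3D, CD3G, CD247, TRAC, TRBC2, CD8A and IL2RA were present throughout. The summed level of the 13 markers was mostly that of IL2RA, which averaged 680 CPM over the 12 libraries. This sum was 547 to 568 CPM with romidepsin and 1083 to 1119 CPM with afatinib. It was 320 to 331 CPM with the combination and 1557 to 1644 CPM with DMSO, and its part in the results below was not tested. Of 7 glial markers, S100B and OLIG2 had no count in any library, and the summed level, mostly that of MBP, was 51.5 to 55.9 CPM with romidepsin, 67.6 to 71.9 CPM with afatinib, 53.3 to 55.1 CPM with the combination and 74.7 to 85.7 CPM with DMSO. Of 6 keratinocyte markers, KRT10 and SFN had at least 394 and 702 counts in every library, KRT1 had none and DSG3 at most 1. The summed level, mostly that of SFN and KRT10, was 135 to 144 CPM with romidepsin and 188 to 221 CPM with afatinib. It was 128 to 143 CPM with the combination and 198 to 248 CPM with DMSO. KRT5, a keratin gene of basal keratinocytes, had 126 counts in afatinib replicate 3, 43 in combination replicate 1, 59 in DMSO replicate 1 and 94 in DMSO replicate 2, and at most 1 count elsewhere. The 5 fibroblast markers summed to 26.0 to 32.4 CPM with romidepsin, 97.3 to 101 CPM with afatinib, 14.6 to 17.2 CPM with the combination and 173 to 199 CPM with DMSO, nearly all of it from COL1A1 and COL3A1, with DCN and LUM at 0 counts throughout. Calls that changed without these 4 libraries are given with both values or adjusted p, and the part of keratinocyte or fibroblast transcripts in the results was not tested. In bulk RNA, more cells that express a gene and more RNA per cell cannot be told apart.

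Of the 34 genes, 20 had enough counts to be tested and 14 did not. Among the 20, SYT1, SYT7, STMN4 and TUBB3 had under 10 counts in at least 1 DMSO library, so they entered the test through the libraries of a drug group, and the other 16 had at least 10 counts in all DMSO libraries. With romidepsin, 15 of the 20 tested genes rose, 2 fell and 3 were not called (edgeR quasi-likelihood test, Benjamini-Hochberg adjusted p under 0.05 over all 16208 tested genes). Of all tested genes, 62.6% were called in this comparison, 31.1% as higher and 31.5% as lower. A rise of at least 2-fold was called for 11 of the 20 tested genes, where 13.3% of all tested genes had one. Of the 16 genes seen in every DMSO library, 12 rose, 8 of them at least 2-fold, 2 fell and 2 were not called. The median log2 fold change was 1.05 over the 20 genes, with SYT1, SYT7, STMN4 and TUBB3 included, and 0.00 over all tested genes. Because the 34 genes were chosen with earlier results of these data known, these shares and medians only describe them.

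With afatinib alone, 5 of the 20 genes rose, 6 fell and 9 were not called, where 45.4% of all tested genes were called, 22% as higher and 23.3% as lower. A rise of at least 2-fold with afatinib was called for 1 gene, SYT1, against 6.36% of all tested genes. Among the 16 genes seen in every DMSO library, 4 rose, 0 of them at least 2-fold, 5 fell and 7 were not called. When libraries were scaled by their size alone, 62.2% of all calls against DMSO were higher, compared with 48.6% under TMM scaling, the median of all genes moved to a log2 fold change of 0.10, and 6 of the 34 genes were higher and 6 lower. Without the 4 libraries with KRT5 reads, which leaves a single DMSO library that is taken to vary like the other groups, 2 rose and 5 fell. The combination raised 15 genes against DMSO, lowered 4 and left 1 uncalled, where 74.3% of all tested genes were called, 37.2% as higher and 37.1% as lower. It raised 13 of the 20 at least 2-fold, where 21.1% of all tested genes had such a rise. Of the 16 genes seen in every DMSO library, the combination raised 12, 10 of them at least 2-fold, and lowered 4. The median log2 fold change of the 20 genes, with SYT1, SYT7, STMN4 and TUBB3 included, was 0.01 with afatinib and 1.39 with the combination. Over all tested genes it was 0.00 and -0.01. These 3 comparisons share the DMSO libraries.

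**Figure D1:**
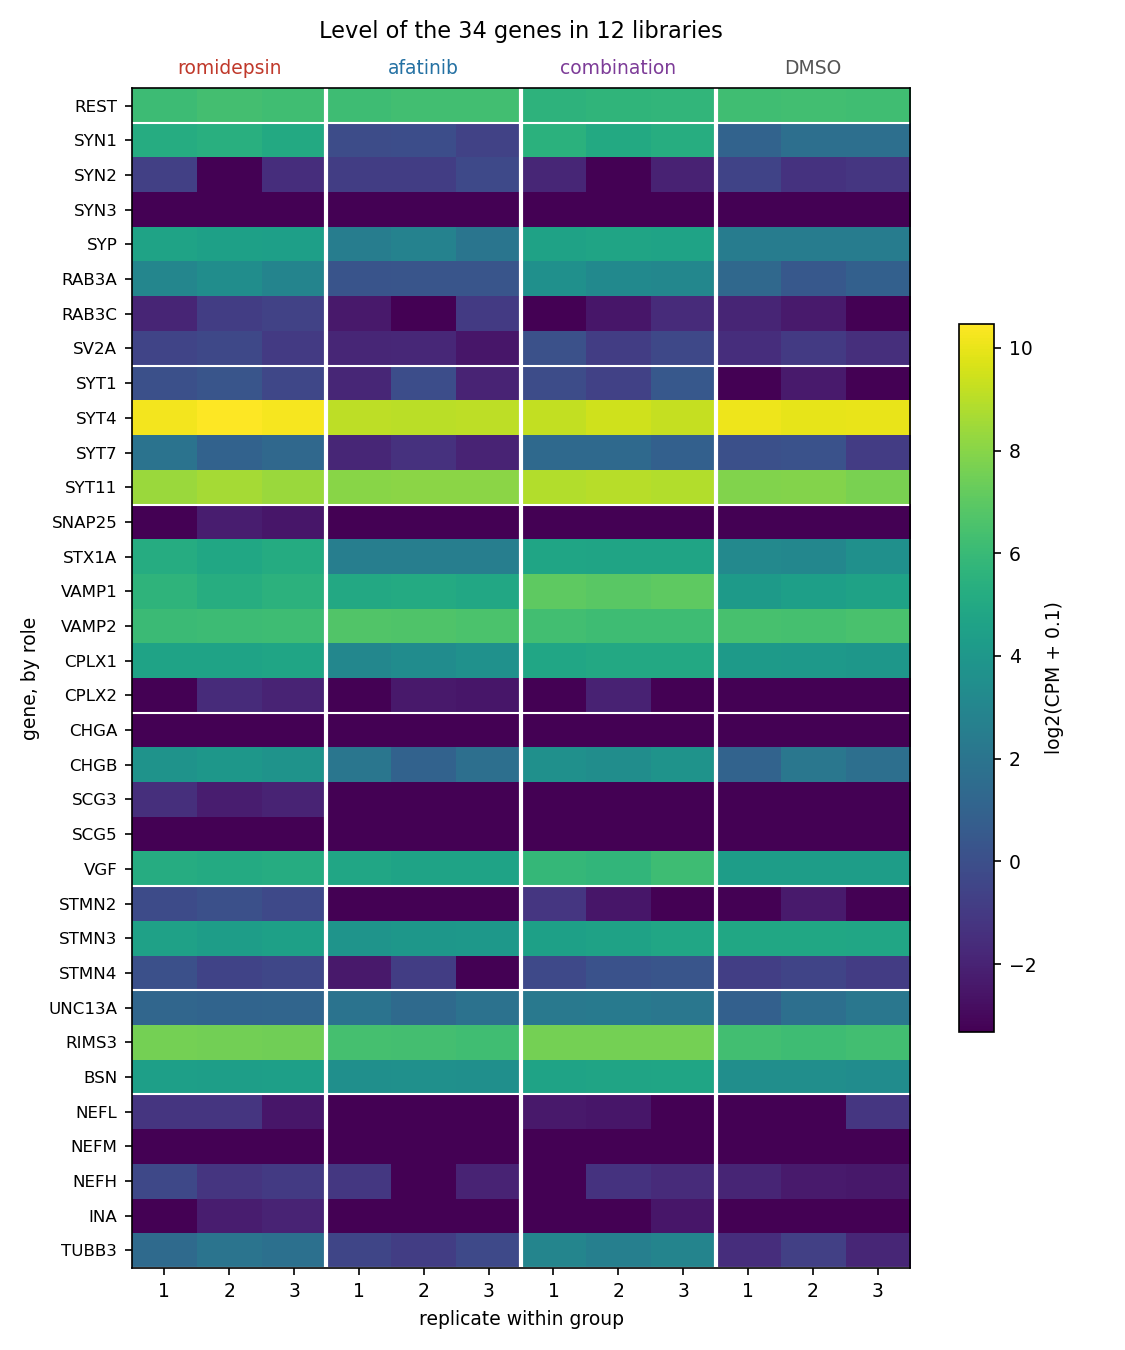
Level of each of the 34 genes (rows, grouped by role) in each of the 12 libraries (columns), as log2 of CPM plus 0.1. SYT4 and SYT11 are the brightest rows in every group, SYN3, CHGA, SCG5 and NEFM are dark throughout, and SYN1, SYP, STX1A, CHGB and TUBB3 are brighter in the romidepsin and combination columns than in the afatinib and DMSO columns.

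REST itself was expressed at 69.6, 79.8 and 75.8 CPM with romidepsin, 72.1, 79.1 and 78.5 CPM with afatinib, 47.6, 51.6 and 54.6 CPM with the combination and 75.3, 77.2 and 75.7 CPM with DMSO. The romidepsin and afatinib libraries overlapped those of DMSO, whereas all 3 combination libraries lay below all others. With romidepsin alone the log2 fold change of REST was -0.02 (95% interval -0.17 to 0.12, adjusted p = 0.815 by edgeR), and with afatinib alone it was 0.01 (-0.13 to 0.15, adjusted p = 0.926). The combination lowered REST by a log2 fold change of -0.57 against DMSO (SE 0.07, adjusted p = 2.34e-09 by edgeR), -0.55 against romidepsin and -0.58 against afatinib. Its interaction, meaning the log2 fold change with both drugs less those with each drug alone, was -0.56 (SE 0.10, adjusted p = 3.07e-05 by edgeR). Per kilobase of exon, REST had 9.53 CPM in DMSO cells, the sixth highest level of the 34 genes.

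The corepressors and regulators of REST, a list of 23 genes with 21 tested, moved both ways with romidepsin, 9 higher and 9 lower, where 31.1% of all tested genes were higher and 31.5% lower. HDAC1 averaged 69.9 ± 3.1 CPM with romidepsin, 66.9 ± 1.56 CPM with afatinib, 62.6 ± 3.28 CPM with the combination and 89.4 ± 1.91 CPM with DMSO (SD, n = 3 each), and its log2 fold change with romidepsin was -0.36. HDAC2 rose with romidepsin by a log2 fold change of 0.31, and RCOR1 by 0.22. The largest changes in this list with romidepsin were those of CTDSP2 (1.07) and CTDSP1 (-0.98), genes of small phosphatases of RNA polymerase II that act with REST, and of the corepressor CTBP1 (-0.84). With the combination, 6 of the 21 rose and 13 fell against DMSO, where 37.2% of all tested genes rose and 37.1% fell. Among those that fell were CTDSP1 (log2 fold change -1.99), the histone methyltransferase gene EHMT2 (-1.15) and the deubiquitinase gene USP7 (-1.13).

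Promoter windows were read for the RE1 core because REST acts through it. RefSeq windows of 300 bases (250 before to 50 after a start site, GRCh38.p14) matched 24 of the 34 genes by symbol and gave 27 windows, since REST, VAMP2 and TUBB3 have more than 1. The search asked for CAGCACC and GGACAGC with 2 free letters between them on either strand, with at most 2 mismatches among the 14 fixed letters. SYN1, VGF and TUBB3 had such a match, 3 of 27 windows (11.1%), against 284 of 35116 windows of all promoters (0.809%). With at most 1 mismatch, 2 of the 27 windows (7.41%) and 0.117% of all windows held it, and with at most 3 mismatches, 4 of the 27 (14.8%) and 7.06% of all windows. The median GC content was 69.7% in the 27 windows and 58.7% in all windows. The 3 windows with a match are given below on the strand of the gene, 5′ to 3′, and capitals mark the letters that match the core. The windows are chrX:47619808-47620107 on the minus strand for SYN1, chr7:101165520-101165819 on the minus strand for VGF and chr16:89921675-89921974 on the plus strand for TUBB3.
SYN1: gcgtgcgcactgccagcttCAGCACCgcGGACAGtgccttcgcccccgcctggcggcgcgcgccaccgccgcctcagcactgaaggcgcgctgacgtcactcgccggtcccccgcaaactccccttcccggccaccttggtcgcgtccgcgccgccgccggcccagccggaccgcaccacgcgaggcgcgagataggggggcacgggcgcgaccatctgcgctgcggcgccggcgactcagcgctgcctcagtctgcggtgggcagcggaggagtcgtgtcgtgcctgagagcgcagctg
VGF: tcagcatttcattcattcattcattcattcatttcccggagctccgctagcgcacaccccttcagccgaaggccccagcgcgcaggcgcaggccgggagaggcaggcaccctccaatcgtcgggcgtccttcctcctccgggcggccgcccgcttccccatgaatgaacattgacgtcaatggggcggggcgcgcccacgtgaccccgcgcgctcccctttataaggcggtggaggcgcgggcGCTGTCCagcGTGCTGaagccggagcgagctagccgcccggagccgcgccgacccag
TUBB3: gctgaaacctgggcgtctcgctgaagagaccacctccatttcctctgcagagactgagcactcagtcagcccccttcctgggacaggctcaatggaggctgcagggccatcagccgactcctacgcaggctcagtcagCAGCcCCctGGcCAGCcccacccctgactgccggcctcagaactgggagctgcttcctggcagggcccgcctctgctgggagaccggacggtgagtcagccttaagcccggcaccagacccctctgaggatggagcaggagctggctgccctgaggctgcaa
In the SYN1 window the match has 1 mismatch and begins at position -231 from the start site on the gene's strand. In the VGF window it has 1 mismatch, lies on the opposite strand and overlaps the start site. In the upstream window of TUBB3 it has 2 mismatches, and the other TUBB3 window has none with fewer than 4. These matches describe the letters of the windows, and no binding of REST was measured. Because the genes were chosen by name as neuronal genes with REST, their share against all promoters only describes them. CHGB, CPLX1, NEFH, NEFL, NEFM, SNAP25, STMN2, STMN4, SYN3 and SYT7 had no window, and sites outside the windows were not searched.

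Among the genes of the synaptic vesicle, SYN1, the gene of synapsin 1, which ties vesicles to the cytoskeleton, changed most. It had 36.3, 41.3 and 33.4 CPM with romidepsin, 0.828, 0.850 and 0.561 CPM with afatinib, 44.4, 33.4 and 37.7 CPM with the combination and 2.00, 3.23 and 3.15 CPM with DMSO. The romidepsin and combination libraries overlapped each other and lay far above the DMSO libraries, which in turn lay above all afatinib libraries. The log2 fold change of SYN1 was 3.73 with romidepsin (SE 0.16, adjusted p = 1.09e-25 by edgeR), -1.89 with afatinib (SE 0.32, adjusted p = 3.02e-06) and 3.79 with the combination (SE 0.16, adjusted p = 1.36e-26), each against DMSO. The combination did not differ from romidepsin past the threshold (log2 fold change 0.06, 95% interval -0.16 to 0.28), and it exceeded afatinib by 5.68. The interaction of SYN1 was 1.95 (SE 0.34, adjusted p = 1.05e-05 by edgeR). Part of its exons, 24.9% of the bases, overlaps an annotated gene on the same strand, Z84466.1, that had no count.

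SYP, which encodes the vesicle membrane protein synaptophysin, had 25.0, 22.3 and 22 CPM with romidepsin, 5.70, 6.71 and 3.93 CPM with afatinib, 24.8, 26.5 and 25.6 CPM with the combination and 5.49, 5.34 and 5.42 CPM with DMSO. RAB3A, whose product is a GTPase of synaptic vesicles, had 7.98, 10.5 and 7.25 CPM with romidepsin, 1.10, 1.13 and 1.12 CPM with afatinib, 12.1, 9.07 and 8.16 CPM with the combination and 2.41, 1.31 and 1.75 CPM with DMSO. For both genes every romidepsin and combination library was above every DMSO library. SYP rose by a log2 fold change of 2.09 with romidepsin and 2.24 with the combination, and RAB3A by 2.19 and 2.39 (adjusted p at most 2.1e-11 by edgeR in the 4 comparisons). Afatinib alone gave -0.01 for SYP (95% interval -0.37 to 0.35) and -0.72 for RAB3A (-1.39 to -0.05, adjusted p = 0.0724 by edgeR), where the value for RAB3A was -0.89 (adjusted p = 0.0354) without DMSO replicate 2. SYN2, RAB3C and SV2A, the gene of a vesicle glycoprotein, had at most 9, 7 and 11 counts in any library and were not tested. The ratio of summed counts to those of DMSO was 4.42 for RAB3C with romidepsin (95% counting interval 1.22 to 24.2) and 0.255 for SYN2 with the combination (0.0612 to 0.813). A fit without the filter on low counts called neither RAB3C with romidepsin (adjusted p = 0.202 by edgeR) nor SYN2 with the combination (adjusted p = 0.113) against DMSO. In that fit, the combination against afatinib was higher for SV2A (adjusted p = 0.0225 by edgeR) and lower for SYN2 (adjusted p = 0.0402). The exons of RAB3A share 9.08% of their bases with MPV17L2 on the other strand.

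The 4 synaptotagmins bind membranes at the vesicle, SYT1 and SYT7 among them as calcium sensors. SYT4, of which the product does not respond to calcium as SYT1 does, was the most abundant of the 34 genes in every group per kilobase. In DMSO cells it had 239 CPM per kilobase of exon, and 98 of the 16208 tested genes had more. Its level was 1173, 1409 and 1244 CPM with romidepsin, 538, 519 and 538 CPM with afatinib, 593, 713 and 600 CPM with the combination and 1108, 976 and 1008 CPM with DMSO. SYT4 thus rose slightly with romidepsin (log2 fold change 0.31, SE 0.06, adjusted p = 4.36e-05 by edgeR) and fell with afatinib (-0.95) and with the combination (-0.70). On the log2 scale romidepsin added to afatinib raised it by 0.26, afatinib added to romidepsin gave -1.0, and the interaction was -0.05 (95% interval -0.23 to 0.13).

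SYT1, the calcium sensor of fast transmitter release, was nearly absent without a drug, with 11, 10 and 8 counts with romidepsin, 2, 9 and 2 counts with afatinib, 9, 7 and 17 counts with the combination and 0, 1 and 0 counts with DMSO. All levels of SYT1 were low, 0.913 ± 0.248 CPM with romidepsin and 0.880 ± 0.386 CPM with the combination against 0.0336 ± 0.0582 CPM with DMSO (SD, n = 3 each). The ratio of summed counts to those of DMSO, corrected for library size, was 29.6 with romidepsin (95% counting interval 4.91 to 1209), 12.8 with afatinib (1.92 to 543) and 29.5 with the combination (4.93 to 1199). The adjusted p by edgeR was 9.43e-05 with romidepsin, 0.0166 with afatinib and 6.51e-05 with the combination. Without afatinib replicate 2 the afatinib call was lost (adjusted p = 0.225), as it was without DMSO replicate 1 (0.0710) or DMSO replicate 3 (0.0652) and without the 4 libraries with KRT5 reads (0.0625).

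SYT7, a slow calcium sensor that also acts outside neurons, had 3.69, 1.94 and 2.44 CPM with romidepsin, 0.184, 0.283 and 0.160 CPM with afatinib, 2.52, 2.52 and 1.75 CPM with the combination and 0.916, 1.01 and 0.437 CPM with DMSO. It rose with romidepsin (log2 fold change 1.79, SE 0.39) and with the combination (1.52, SE 0.40), and fell with afatinib (-1.86, SE 0.61, adjusted p = 0.0105 by edgeR). Without the 4 libraries with KRT5 reads the afatinib value was -0.84 (adjusted p = 0.588). SYT11, which is widely expressed and does not sense calcium, averaged 352 ± 28 CPM with romidepsin, 268 ± 5.9 CPM with afatinib, 479 ± 18.8 CPM with the combination and 226 ± 15.7 CPM with DMSO (SD, n = 3 each). It was the second most abundant of the genes per kilobase in all 4 groups, and it was higher with each treatment, by log2 fold changes of 0.64 with romidepsin, 0.25 with afatinib and 1.08 with the combination.

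Neuronal exocytosis joins the vesicle SNARE proteins VAMP1 or VAMP2 with STX1A (syntaxin 1A) and SNAP25 on the plasma membrane. STX1A had 36.8, 29.7 and 36.1 CPM with romidepsin, 5.79, 5.76 and 5.77 CPM with afatinib, 27.0, 26.4 and 26.1 CPM with the combination and 8.74, 8.17 and 12.1 CPM with DMSO. The libraries of the 4 groups did not overlap, with romidepsin on top and afatinib lowest. Its log2 fold change was 1.82 with romidepsin, -0.75 with afatinib and 1.45 with the combination (adjusted p = 8.49e-18, 0.000111 and 1.83e-14 by edgeR), and the combination was below romidepsin by -0.37 (adjusted p = 0.0034). SNAP25 had 1 count in each of 2 romidepsin libraries and none elsewhere, so 1 of the partners of STX1A was not detected above the floor. An overlap with BUD23 on the other strand covers 17.9% of the exon bases of STX1A, and reads were counted without strand.

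VAMP1 and VAMP2, which encode 2 forms of synaptobrevin, moved in opposite directions with romidepsin. VAMP1 had 50.4, 39.0 and 45.4 CPM with romidepsin, 32.1, 34.1 and 30.2 CPM with afatinib, 133, 123 and 130 CPM with the combination and 17.9, 21.5 and 24.0 CPM with DMSO. It rose with each drug, by a log2 fold change of 1.10 with romidepsin (SE 0.10) and 0.61 with afatinib (SE 0.10), and by 2.61 with both (SE 0.09, adjusted p = 1.07e-29 by edgeR), so that the combination was above the sum of the single changes by 0.90 (SE 0.13, adjusted p = 2.73e-07 by edgeR). VAMP2 averaged 69.7 ± 2.4 CPM with romidepsin, 100 ± 5.04 CPM with afatinib, 73.1 ± 3.28 CPM with the combination and 86.9 ± 3.69 CPM with DMSO (SD, n = 3 each), with log2 fold changes of -0.32 with romidepsin and -0.25 with the combination. Its rise with afatinib (0.20, adjusted p = 0.0121 by edgeR) was lost without DMSO replicate 2 (0.0703), afatinib replicate 1 (0.0589) or the 4 libraries with KRT5 reads (0.134). Per kilobase, VAMP1 with 35.9 CPM was above VAMP2 with 22.6 CPM in combination cells, and below it in DMSO cells, with 5.91 CPM for VAMP1 and 26.8 CPM for VAMP2. The exons of VAMP1 share 9.47% of their bases with TAPBPL on the other strand. Those of VAMP2 share 12.4% with AC129492.4 on the same strand, which had no count.

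CPLX1, the gene of complexin 1, which clamps assembled SNARE complexes, had 25.3, 25.6 and 27.0 CPM with romidepsin, 8.19, 10.5 and 12.3 CPM with afatinib, 28.3, 32.2 and 32.2 CPM with the combination and 17.9, 17.1 and 15.7 CPM with DMSO. All romidepsin and combination libraries were above, and all afatinib libraries below, those of DMSO. The log2 fold change was 0.62 with romidepsin, -0.70 with afatinib and 0.88 with the combination, and the interaction was 0.96 (SE 0.17, adjusted p = 1.21e-05 by edgeR). The combination exceeded romidepsin by 0.25 (adjusted p = 0.0424 by edgeR), a call that was lost without any 1 of 7 libraries, with adjusted p of 0.0509 (DMSO replicate 2), 0.0536 (afatinib replicate 2), 0.127 (combination replicate 2), 0.135 (combination replicate 3), 0.128 (romidepsin replicate 1), 0.0993 (romidepsin replicate 2) and 0.0675 (romidepsin replicate 3), and also with DESeq2 (0.0692) or without the filter on low counts (0.0595). CPLX2 had at most 2 counts in any library.

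**Figure D2:**
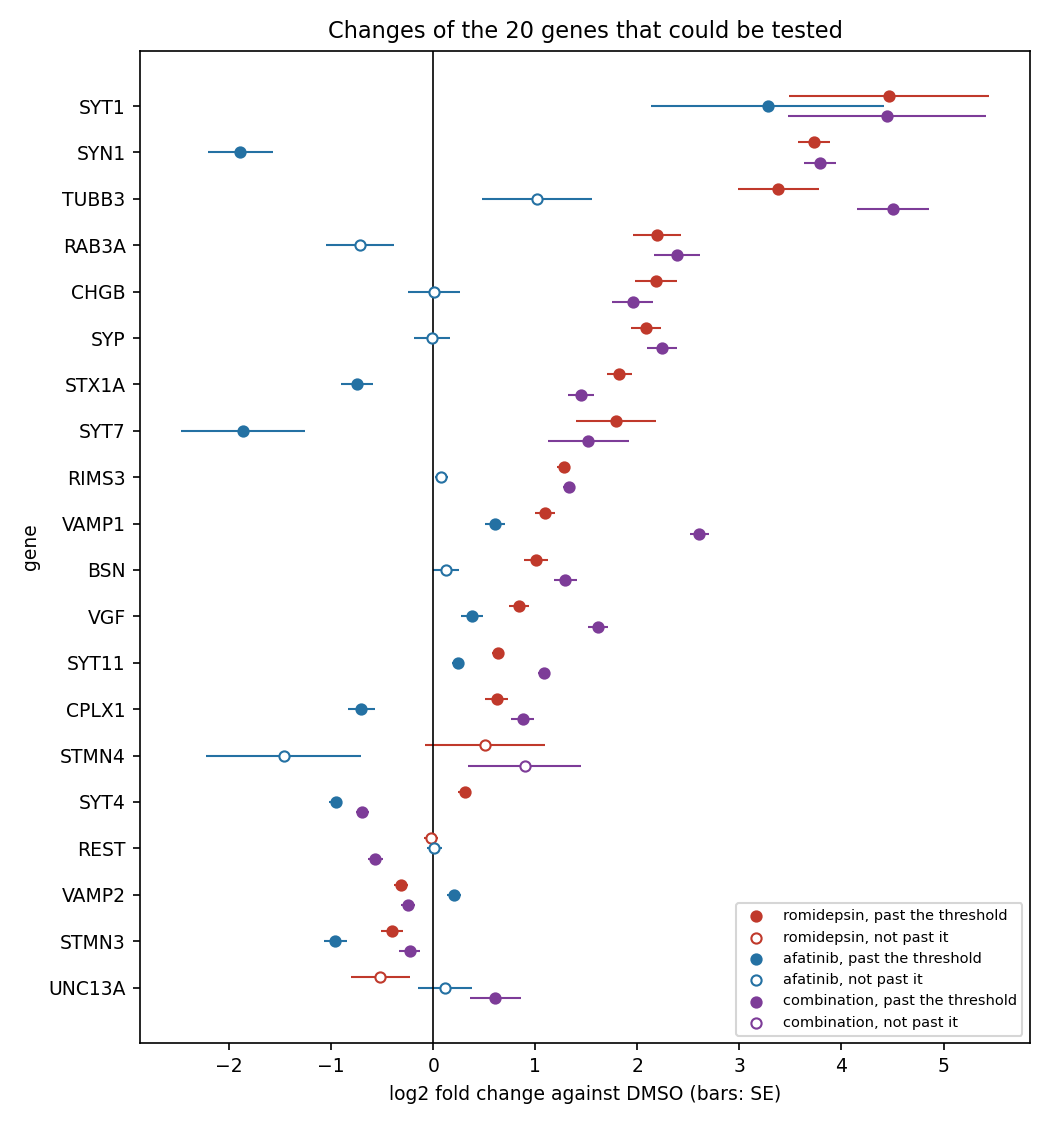
Log2 fold change against DMSO (horizontal axis) of the 20 tested genes with romidepsin, afatinib and the combination, with bars of 1 SE and filled points where the adjusted p was under 0.05. For SYN1 the romidepsin and combination points lie at 3.73 and 3.79 and the afatinib point at -1.89, and for SYT4 and STMN3 the lowest point is that of afatinib.

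Of the 5 genes of dense core granules, which store peptides and hormones, CHGB and VGF were expressed and CHGA, SCG3 and SCG5 were not. CHGB, the gene of the granin chromogranin B, had 13.6, 15.4 and 13.5 CPM with romidepsin, 4.23, 1.89 and 3.21 CPM with afatinib, 12.1, 10.9 and 13.2 CPM with the combination and 2.00, 4.23 and 3.24 CPM with DMSO. It was higher with romidepsin (log2 fold change 2.18, SE 0.20) and with the combination (1.95, SE 0.20), while the value with afatinib was 0.01 (95% interval -0.50 to 0.51). VGF, which encodes a precursor of neuropeptides and has a core match at its start site, had 36.4, 34.8 and 37.2 CPM with romidepsin, 28.1, 24.9 and 25.8 CPM with afatinib, 58.8, 54.6 and 72.2 CPM with the combination and 20.1, 20.1 and 20.5 CPM with DMSO. The 4 groups of VGF did not overlap, in the order combination, romidepsin, afatinib, DMSO. Its log2 fold change was 0.84 with romidepsin (SE 0.10), 0.38 with afatinib (SE 0.10, adjusted p = 0.00246 by edgeR) and 1.61 with the combination (SE 0.10). Without the 4 libraries with KRT5 reads the afatinib value was 0.41 with an adjusted p of 0.0638. CHGA and SCG5 had no count in any library, and SCG3 had 6 counts in all, each in a romidepsin library.

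The stathmins bind tubulin dimers and regulate microtubules. STMN3 had 23.2, 20.2 and 23.1 CPM with romidepsin, 13.7, 15.6 and 16.1 CPM with afatinib, 22.8, 24.2 and 28.1 CPM with the combination and 29.6, 29.8 and 28.9 CPM with DMSO. All 9 libraries with a drug were below the 3 DMSO libraries, and the afatinib libraries were lowest. The log2 fold change was -0.40 with romidepsin (adjusted p = 0.000823 by edgeR) and -0.96 with afatinib (adjusted p = 4.18e-10), and the interaction was 1.13 (SE 0.15, adjusted p = 6.24e-08). The romidepsin call was lost without the 4 libraries with KRT5 reads (-0.33, adjusted p = 0.0646). The fall with the combination (-0.23, adjusted p = 0.0406 by edgeR) was lost with library size scaling (-0.13) and in 11 other alternatives, among them the fits without DMSO replicate 1 (0.185), DMSO replicate 2 (0.0662), afatinib replicate 1 (0.108), afatinib replicate 3 (0.113), combination replicate 1 (0.179) or combination replicate 2 (0.102), given as adjusted p. Without the 4 libraries with KRT5 reads it was -0.07 (adjusted p = 0.711).

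STMN2, a growth-associated gene of axons, had 9, 8 and 9 counts with romidepsin, none with afatinib, 4, 1 and 0 counts with the combination and 0, 1 and 0 counts with DMSO. It was too low for the main test. Its counts were thus found mostly in the romidepsin libraries, with a ratio to DMSO of 26.5 (95% counting interval 4.36 to 1088), and the combination against DMSO gave 4.47 (0.50 to 211). In a fit without the filter on low counts, over 33830 genes, STMN2 was higher with romidepsin than with DMSO (adjusted p = 0.00135 by edgeR) and lower with the combination than with romidepsin (adjusted p = 0.0371). STMN4 averaged 0.722 ± 0.196 CPM with romidepsin, 0.188 ± 0.251 CPM with afatinib, 0.951 ± 0.215 CPM with the combination and 0.514 ± 0.0847 CPM with DMSO (SD, n = 3 each), and passed the threshold for the combination against afatinib (log2 fold change 2.36, SE 0.67, adjusted p = 0.00187 by edgeR). Against DMSO its value with afatinib was -1.46 (adjusted p = 0.113 by edgeR), and -3.28 (adjusted p = 0.0144) without afatinib replicate 2.

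At the active zone, where vesicles dock, RIMS3 and BSN rose with romidepsin. RIMS3, whose product regulates release, had 190, 184 and 179 CPM with romidepsin, 84.5, 80.2 and 76.1 CPM with afatinib, 188, 191 and 193 CPM with the combination and 77.4, 72.6 and 77.6 CPM with DMSO. BSN, the gene of the scaffold protein bassoon, averaged 21.7 ± 0.288 CPM with romidepsin, 11.8 ± 0.266 CPM with afatinib, 26.5 ± 1.19 CPM with the combination and 10.8 ± 0.491 CPM with DMSO (SD, n = 3 each). RIMS3 had log2 fold changes of 1.28 with romidepsin and 1.33 with the combination, and BSN of 1.01 and 1.29. With afatinib the value was 0.08 for RIMS3, which passed the threshold at 0.18 when libraries were scaled by size alone (adjusted p = 0.0198 by edgeR), and 0.13 for BSN (95% interval -0.13 to 0.38). BSN was higher with the combination than with romidepsin by 0.29 (adjusted p = 0.0191 by edgeR), and this call was lost without combination replicate 3 (0.0921) or romidepsin replicate 1 (0.0503), 2 (0.0564) or 3 (0.0593).

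UNC13A, whose product primes vesicles for release, had 2.23, 2.06 and 2.12 CPM with romidepsin, 3.68, 2.65 and 3.61 CPM with afatinib, 4.59, 5.11 and 4.34 CPM with the combination and 1.75, 3.13 and 4.37 CPM with DMSO. The DMSO libraries of UNC13A spanned the romidepsin and afatinib libraries and reached those of the combination. The value with romidepsin was -0.52 (adjusted p = 0.113 by edgeR), -0.79 (adjusted p = 0.0156) without DMSO replicate 1, and -0.98 (adjusted p = 0.0150) without the 4 libraries with KRT5 reads. The rise with the combination (0.61, adjusted p = 0.027 by edgeR) was lost without DMSO replicate 1 (0.36, adjusted p = 0.197), combination replicate 2 (0.54, adjusted p = 0.0870) or the 4 libraries with KRT5 reads (0.18, adjusted p = 0.651), and with DESeq2 (0.64, adjusted p = 0.0772). The combination was above romidepsin by 1.13 (SE 0.27, adjusted p = 0.000376 by edgeR), with no overlap of the libraries.

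TUBB3, the gene of the tubulin by which neurons are commonly marked, was the gene that crossed from under 1 CPM in every DMSO library to at least 1 CPM in every library of a drug group. It had 2.66, 3.89 and 3.26 CPM with romidepsin, 0.644, 0.472 and 0.721 CPM with afatinib, 7.55, 6.17 and 7.47 CPM with the combination and 0.250, 0.504 and 0.175 CPM with DMSO. The log2 fold change was 3.38 with romidepsin (SE 0.40, adjusted p = 2.61e-10 by edgeR) and 4.51 with the combination (SE 0.35, adjusted p = 4.19e-16), and the combination exceeded romidepsin by 1.12 (SE 0.23, adjusted p = 6.19e-05). With afatinib alone it was 1.02 (95% interval -0.08 to 2.11, adjusted p = 0.125 by edgeR). Of its exon bases, 35.8% are shared with the annotated gene AC092143.1 on the same strand, which had no count.

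By that rule, 17 of the 34 genes were under 1 CPM in all DMSO libraries, and 1 of them, TUBB3, was switched on by romidepsin and by the combination, and none by afatinib. Of the 44231 gene names under 1 CPM in all DMSO libraries, 0.904% were switched on by romidepsin, 0.393% by afatinib and 1.53% by the combination. With a threshold of 0.5 CPM the genes were SYT1 and STMN2 for romidepsin and SYT1 for the combination. Without DMSO replicate 2, in which SYT7 had 1.01 CPM, SYT7 joined TUBB3 for both, giving 2 genes each. Of the 4 neurofilament genes, which encode the intermediate filaments of axons, none was expressed above a trace. NEFM had no count, INA at most 2, NEFL at most 4 and NEFH at most 8 in any library. The ratio of summed counts of NEFH with romidepsin to those with DMSO was 4.08 (95% counting interval 1.32 to 16.8). In the fit without the filter on low counts, this rise of NEFH was not called (log2 fold change 1.90, adjusted p = 0.161 by edgeR).

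**Figure D3:**
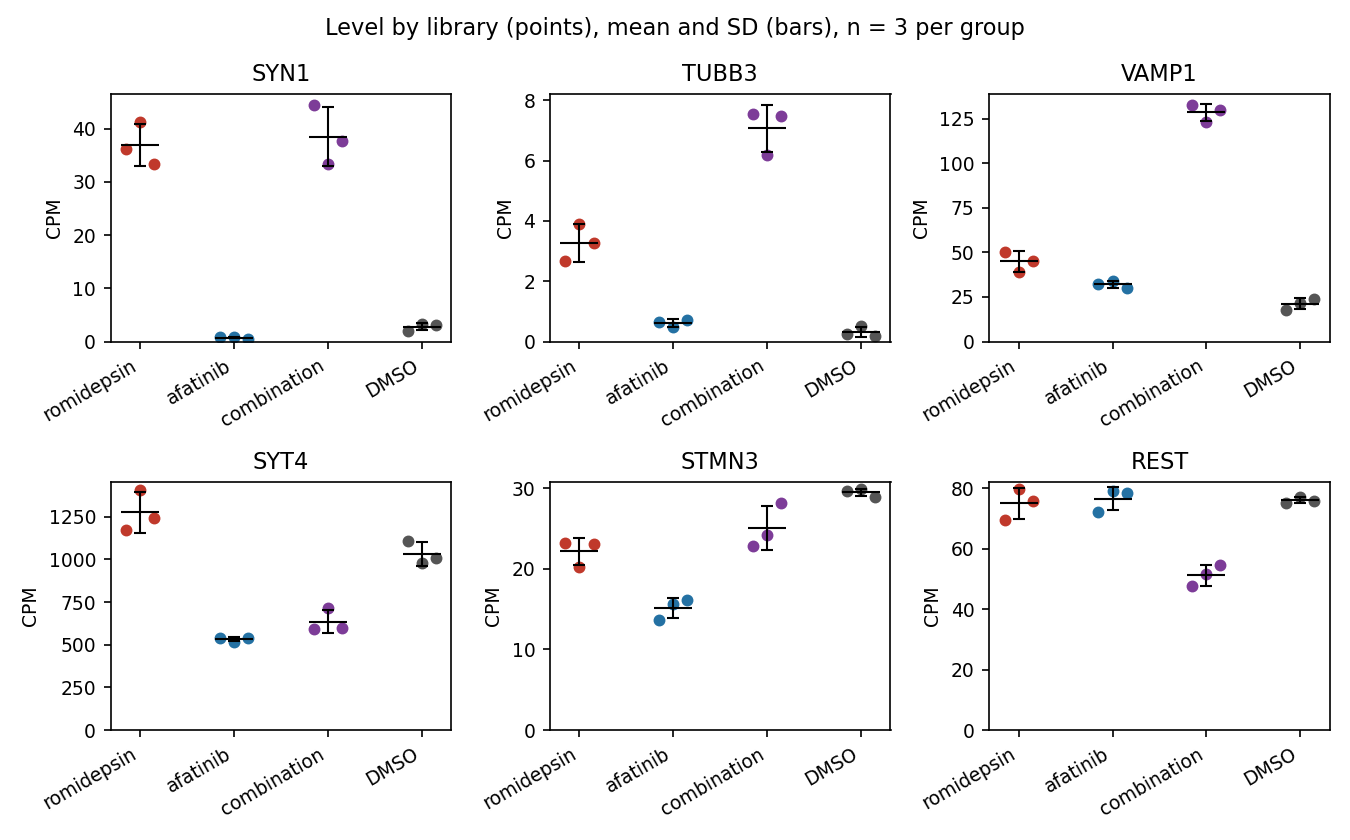
CPM of SYN1, TUBB3, VAMP1, SYT4, STMN3 and REST in each library (points), with the mean and SD of 3 libraries per group (bars). TUBB3 reaches 7.07 ± 0.774 CPM with the combination and 3.27 ± 0.615 CPM with romidepsin, VAMP1 is highest with the combination, and REST is lowest there.

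At most 3 counts in every library were found for 8 genes, here called silent, namely SYN3, CHGA, SCG5 and NEFM, which had no count at all, and SNAP25, SCG3, CPLX2 and INA. A count of 0 allows a level of up to 0.229 to 0.343 CPM, depending on the library. Some of the 8 belong to a family with an expressed member. SYN3 belongs to the synapsins with SYN1, CPLX2 to the complexins with CPLX1, and CHGA and SCG3 to the granins with CHGB. SNAP25, NEFM and INA share only a role group with an expressed gene, SNAP25 with STX1A, and NEFM and INA with TUBB3.

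Where both drugs were given, 7 of the 20 genes were higher than with romidepsin alone and 3 lower, where 54.3% of all tested genes were called, 25.1% as higher and 29.2% as lower. The higher genes were VAMP1, UNC13A, TUBB3, VGF, SYT11, BSN and CPLX1, with log2 fold changes of 0.25 to 1.51, of which 3 were at least 2-fold against 7.98% of all tested genes, and the lower ones were SYT4 (-1.0), REST (-0.55) and STX1A (-0.37). Among the 16 genes seen in every DMSO library, 6 were higher, 2 of them at least 2-fold, 3 were lower and 7 were not called. Against afatinib alone, the combination raised 16 and lowered 2 of the 20 genes, where 69.2% of all tested genes were called, 33.4% as higher and 35.8% as lower. A rise of at least 2-fold was called for 13 genes, 10 of them among the 16 seen in every DMSO library, where 16.3% of all tested genes had one, and the 2 that fell were REST and VAMP2. This comparison shares no library with that of romidepsin and DMSO.

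**Figure D4:**
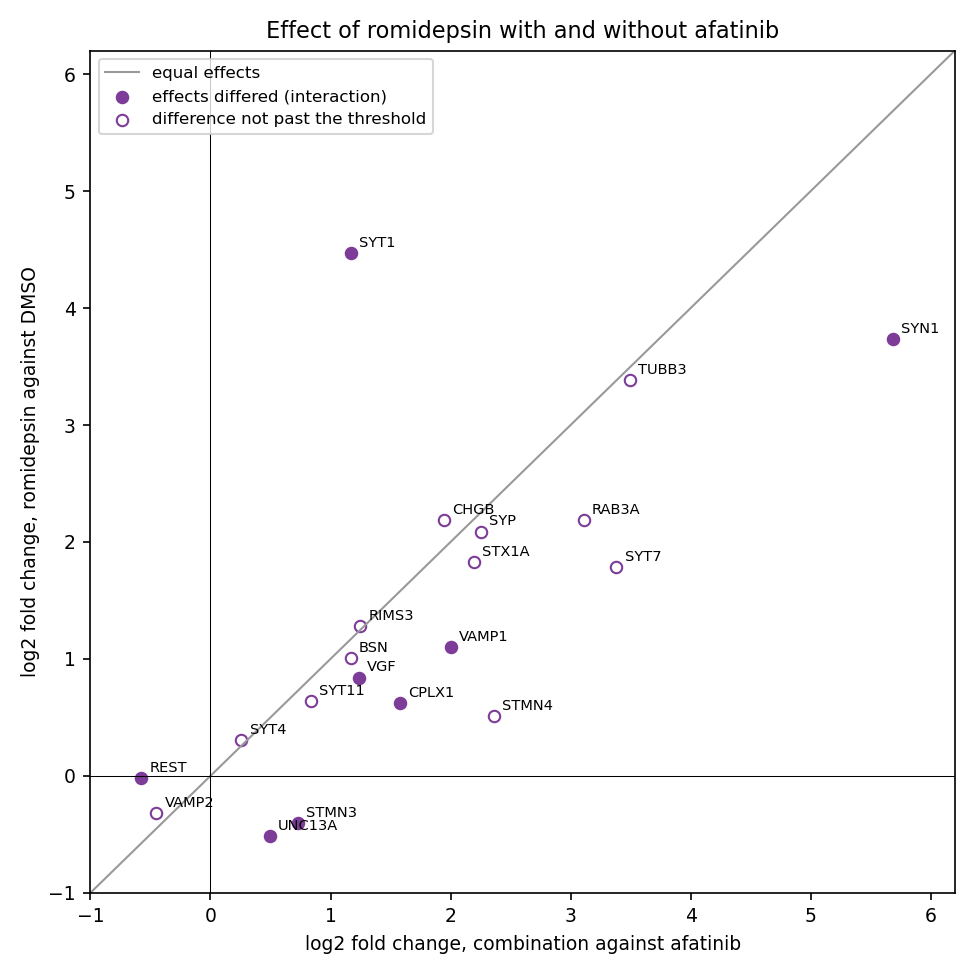
Log2 fold change of romidepsin against DMSO (vertical axis) and of the combination against afatinib (horizontal axis) for the 20 tested genes, with the line of equal effects, and filled points for genes with an interaction past the threshold. SYN1 lies right of the line at 5.68 and 3.73, SYT1 lies left of it, and SYP, RIMS3, TUBB3 and CHGB lie close to it.

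An interaction past the threshold was found for 8 of the 20 genes, 6 above and 2 below the sum of the single-drug changes, where 30.2% of all tested genes had one, 11.7% above and 18.5% below. It was at least 2-fold above for 3 genes, against 2.78% of all tested genes. Among the 16 genes seen in every DMSO library, 6 were above the sum, 3 of them at least 2-fold, and 1 was below. The genes above the sum were SYN1, STMN3, UNC13A, CPLX1, VAMP1 and VGF, and those below were SYT1 and REST. SYN1, STMN3 and CPLX1 fell with afatinib alone, whereas afatinib added to romidepsin gave log2 fold changes of 0.06, 0.17 and 0.25. For RIMS3 the interaction was -0.03 (95% interval -0.20 to 0.15) and for SYP 0.16 (-0.27 to 0.59), neither past the threshold.

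Lists of related genes moved as follows with romidepsin, where 31.1% of all tested genes were higher and 31.5% lower. Of 37 other neuronal genes with known RE1 sites, 13 could be tested, of which 7 rose and 3 fell, with a median log2 fold change of 0.54. SCN3A, a neuronal sodium channel gene, averaged 10.1 ± 1.51 CPM with romidepsin, 1.51 ± 0.26 CPM with afatinib, 7.68 ± 0.392 CPM with the combination and 1.17 ± 0.877 CPM with DMSO (SD, n = 3 each), and L1CAM, an adhesion gene of axons, averaged 41.4 ± 2.5 CPM with romidepsin and 10.98 ± 0.739 CPM with DMSO. Of 39 other synaptic genes, 21 could be tested, and 10 rose and 4 fell, among them SLC17A7, the vesicular glutamate transporter gene (log2 fold change 1.78), the postsynaptic scaffold gene HOMER2 (2.10) and the exocytosis regulator gene DOC2A (-2.55). Of 28 neuronal transcription and RNA-binding factors, 7 could be tested, of which 2 rose, POU3F2 (3.17) and NOVA2 (2.15), and 3 fell. Of 25 widely expressed exocytosis genes, 20 could be tested, of which 10 rose and 7 fell.

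SNAP23 and VAMP3, which serve in the place of SNAP25 and VAMP2 in many cells outside the nervous system, were both expressed. SNAP23 averaged 3.45 ± 0.441 CPM with romidepsin, 1.11 ± 0.228 CPM with afatinib, 3.21 ± 0.744 CPM with the combination and 1.70 ± 0.301 CPM with DMSO (SD, n = 3 each), with a log2 fold change of 1.02 with romidepsin (adjusted p = 0.00223 by edgeR). VAMP3 rose with romidepsin by a log2 fold change of 0.62 and with the combination by 1.34. The plasma membrane syntaxin gene STX3 averaged 98.95 ± 4.67 CPM with romidepsin, 24.7 ± 0.507 CPM with afatinib, 133 ± 6.1 CPM with the combination and 13.8 ± 1.14 CPM with DMSO (SD, n = 3 each), and STX7, an endosomal syntaxin gene, rose by 2.53 with romidepsin. UNC13D, the relative of UNC13A that primes cytotoxic granules, averaged 93.4 ± 4.3 CPM with romidepsin, 242 ± 7 CPM with afatinib, 48.3 ± 2.83 CPM with the combination and 323 ± 15.5 CPM with DMSO, with a log2 fold change of -2.74 with the combination.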

How the data were processed

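Counts per gene name were deposited for 12 libraries, made by the authors with featureCounts 2.0.0 from paired reads, without a strand option and without reads that map to several places, per the file headers. The submitters' processing notes name STAR 2.7.9a, GRCh38.p12 and DESeq2 1.38.1, and the file headers name GENCODE 31. A second deposited table was not used, because its values do not follow the counts. The treatment label of each library gave its group. Genes were kept by edgeR's filterByExpr (16208), scaled by TMM and tested with edgeR 4.0.16 in R 4.3.3. The model had a mean for each of the 4 groups and was fitted to all 12 libraries with glmQLFit (robust), and contrasts were tested with glmQLFTest, two-sided, at an adjusted p under 0.05 (Benjamini-Hochberg over all kept genes). The biological coefficient of variation was 6.13%. Totals of 8972228 to 12696653 counts set the precision. Standard errors were computed from the log2 fold change and the F statistic. The script was tested on simulated data. Alternatives were other normalizations, other filters, DESeq2 1.42.0, a replicate block, fits of only the groups compared, and fits without single libraries or without the 4 with KRT5 reads. Coordinates and exon lengths come from the count table, and promoter windows from RefSeq (GRCh38.p14). The 34 genes and all lists were chosen with earlier results of these data known. From each list at most 3 genes per comparison were named, taken by the size of their log2 fold change among called genes that averaged at least 1 CPM, and HDAC1, HDAC2, RCOR1, SNAP23, VAMP3 and VAMP8 could always be named. A gene that meets this rule is not reported here.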

Additional observations from a re-analysis of the deposited data

Results flagged for a closer look

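For 8 of the 20 tested genes the effect of each drug differed with and without the other, by the interaction term of edgeR, on the log2 scale. Of all tested genes, 30.2% had an interaction past the threshold. SYN1 had an interaction of 1.95, since romidepsin raised it by 3.73 without afatinib and by 5.68 with it. STMN3 had 1.13, since romidepsin lowered it without afatinib (-0.40) and raised it with afatinib (0.73). VAMP1 had 0.90, and CPLX1 had 0.96. REST had -0.56, since romidepsin gave -0.02 without afatinib and -0.58 with it. VGF had 0.40 (adjusted p = 0.0243 by edgeR), and the call was lost without afatinib replicate 2 (0.0722), combination replicate 3 (0.155), romidepsin replicate 2 (0.0531) or the 4 libraries with KRT5 reads (0.129), given as adjusted p. UNC13A had 1.01 (adjusted p = 0.0372 by edgeR), and the call was lost with DESeq2 (0.0727) and without DMSO replicate 2 or 3, afatinib replicate 2, combination replicate 1 or 2, or any 1 romidepsin library, with adjusted p of 0.0523 to 0.236. SYT1 had -3.30 (adjusted p = 0.0446 by edgeR) with 1 count in all DMSO libraries, and the call was lost without DMSO replicate 1 or 3, afatinib replicate 2, combination replicate 1 or 2, or romidepsin replicate 1 or 2 (adjusted p of 0.0645 to 0.296), without the filter on low counts (0.0766) and without the 4 libraries with KRT5 reads (0.0998).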

How the results depend on the processing

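No called value changed sign under the alternatives run, while some values not past the threshold did, such as UNC13A with afatinib (-0.43 to 0.47). Of 120 values of single genes, 96 kept their call in every alternative and 24 changed it in at least 1. The number of the 34 genes called for afatinib against DMSO was 11, and 7 without the 4 libraries with KRT5 reads. Counts of called genes without single libraries were 17 to 18 for romidepsin, 10 to 11 for afatinib and 17 to 19 for the combination against DMSO, 8 to 10 for the combination against romidepsin, 18 to 19 against afatinib and 6 to 8 for the interaction. Genes switched on by romidepsin numbered 1, and 2 at a threshold of 0.5 CPM or with library size scaling, and 1 to 2 without single libraries. For the combination they numbered 1, 2 with library size scaling, and 1 to 2 without single libraries. Silent genes numbered 8, and 5 with at most 1 count or 13 with at most 10 counts allowed. Promoter matches numbered 3, and 2 or 4 with at most 1 or 3 mismatches, the share in all windows being 0.809%, 0.117% and 7.06%. With a replicate block, 17, 11, 19, 10, 18 and 7 genes were called in the 6 comparisons, and the block ended the interaction call of SYT1. The replicate numbers were not taken as pairs, since the 18 same-numbered pairs had correlations of -0.09 to 0.09. The 14 genes that were not tested had at most 11 counts in any library, which limits what could be detected in them at this depth.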

Other observations

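Several further genes of neuronal secretion and signalling differed between the groups, among those the rule names. SCG2, the gene of the granin secretogranin 2, averaged 31.8 ± 2.09 CPM with romidepsin, 7.73 ± 0.994 CPM with afatinib, 90.8 ± 2.21 CPM with the combination and 19.4 ± 3.04 CPM with DMSO (SD, n = 3 each). It fell with afatinib alone (log2 fold change -1.33), rose with the combination (2.22), and had an interaction of 2.85 (adjusted p = 6.38e-20 by edgeR). MAPK8IP1, the gene of a JNK scaffold protein, averaged 8.21 ± 0.829 CPM with romidepsin, 3.52 ± 1.13 CPM with afatinib, 19.2 ± 0.683 CPM with the combination and 2.46 ± 0.49 CPM with DMSO.

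Of 15 neuroendocrine secretory genes, 5 could be tested, and 2 rose and 1 fell with romidepsin, where 62.6% of all tested genes were called. PAM, whose product amidates peptide hormones, rose by a log2 fold change of 1.24 with romidepsin and 1.30 with the combination. ENO2, the gene of neuronal enolase, fell by 0.60 with romidepsin and by 0.71 with the combination. Of the 39 other synaptic genes, DNM1, the gene of the dynamin that cuts vesicles from the membrane, averaged 10.4 ± 0.524 CPM with romidepsin, 6.44 ± 0.327 CPM with afatinib, 21.7 ± 0.824 CPM with the combination and 3.52 ± 0.461 CPM with DMSO. HOMER2 was raised by afatinib (log2 fold change 2.47) as well as by romidepsin (2.10), and its interaction was -1.69 (adjusted p = 6.16e-05 by edgeR).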
